A study of Homo sapiens with 9 samples.

Results

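Complement genes were examined in 3 human mammary epithelial cell lines of 1 lineage. The set holds 9 genes, taken by gene symbol from the gene tables: C3, CFB, CFI, C1R, C1S, CD46, CD55, CD59 and SERPING1. All 9 were found among the 62666 genes listed, and all 9 passed the filter on low counts, which left 17910 genes for testing. MCF10A is a non-tumorigenic breast epithelial line. MCF10AT1 is a premalignant derivative of it that carries an activated HRAS gene. MCF10Ca1a was derived from xenografts of HRAS-transformed MCF10A cells and forms malignant tumours. Polyadenylated RNA was sequenced in 3 libraries per line. All lines were kept in DMEM/F12 medium with insulin, epidermal growth factor, hydrocortisone and cholera toxin. Horse serum was 5% for MCF10A and MCF10Ca1a and 2.5% for MCF10AT1, so serum and line cannot be told apart in any comparison with MCF10AT1. Each stage is represented by 1 line, and nothing in the labels says that the 3 libraries of a line came from separate cultures, so p-values measure only the spread between these libraries.

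Complement is a cascade of plasma and membrane proteins that marks cells and debris for removal. The classical route starts when the proteases C1r and C1s are activated on bound C1q, and the alternative route is driven by factor B on deposited C3b. Both routes converge on cleavage of C3. Host cells hold the cascade back with soluble inhibitors, such as C1 inhibitor (the product of SERPING1) and the protease factor I, and with the membrane proteins CD46, CD55 and CD59. CD46 is a cofactor for factor I, CD55 speeds the decay of the convertases, and CD59 blocks assembly of the membrane attack complex. The liver makes most plasma complement, and epithelial cells make several of these proteins themselves.

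Levels are given in CPM (counts scaled to a common library size), and 1 CPM stood for 62.1 to 69.8 counts in the libraries of the first 2 lines and for 33.6 to 35.8 in those of MCF10Ca1a, which were sequenced to a lower depth. No 2 libraries held identical values. Of the pairs of libraries of 1 line, MCF10A replicates 1 and 3 differed most, with counts that gave a chi-square of 68.3 per degree of freedom (2.42 to 29.5 for the other pairs). HRAS, the gene introduced into MCF10AT1, had 39.2 to 49.3 TPM (transcript abundance corrected for length and scaled to a common total) in MCF10A, 92.2 to 103 in MCF10AT1 and 187 to 190 in MCF10Ca1a. All 6 epithelial markers read had at least 1 TPM in every line. The 4 hepatocyte markers together stayed between 0 and 0.414 TPM. Of 4 endothelial markers only PECAM1 passed 1 TPM, with 18.7 TPM in MCF10Ca1a, where CDH5 had 0 counts. Fewer expressing cells and less RNA per cell cannot be told apart in these bulk libraries.

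Of the 9 genes, 8 were expressed above the filter in all 3 lines, and all 8 differed between MCF10AT1 and MCF10A: 6 were lower in MCF10AT1 and 2, CD55 and CD59, were higher. SERPING1 passed the filter through its MCF10A libraries alone, where it was high, so it had to differ from MCF10A and is left out of these counts. Genes were tested with the quasi-likelihood method of edgeR and called at a Benjamini-Hochberg adjusted p under 0.05. The test called 61.6% of all genes in this comparison, 31.8% lower and 29.8% higher. In MCF10Ca1a against MCF10A, 2 of the 8 were higher (C3 and CD55), 5 were lower and CFB was not called, against 39.0% of all genes higher and 41.9% lower (80.9% in either direction). In MCF10Ca1a against MCF10AT1, 5 were higher (C3, CFB, CFI, C1S and CD55), 2 were lower (C1R and CD59) and CD46 was not called, against 38.0% higher and 40.3% lower (78.4% in either direction). With shares called as high as these, 7 calls among 8 genes is near the background in the comparisons with MCF10Ca1a.

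Library ranges in CPM were separate for 8, 7 and 7 of the 8 genes in the 3 comparisons, beside 65.4%, 81.5% and 81.9% of all genes. Of the 8, 6 were called in all 3 comparisons, as were 43.1% of all genes. The median log2 fold change of the 8 was -1.24, -0.52 and 1.003, beside -0.00, -0.05 and -0.04 over all genes tested. C3, CFB, CFI and C1S were lower in MCF10AT1 than in both other lines, a pattern held by 12.7% of all genes.

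**Figure D1:**
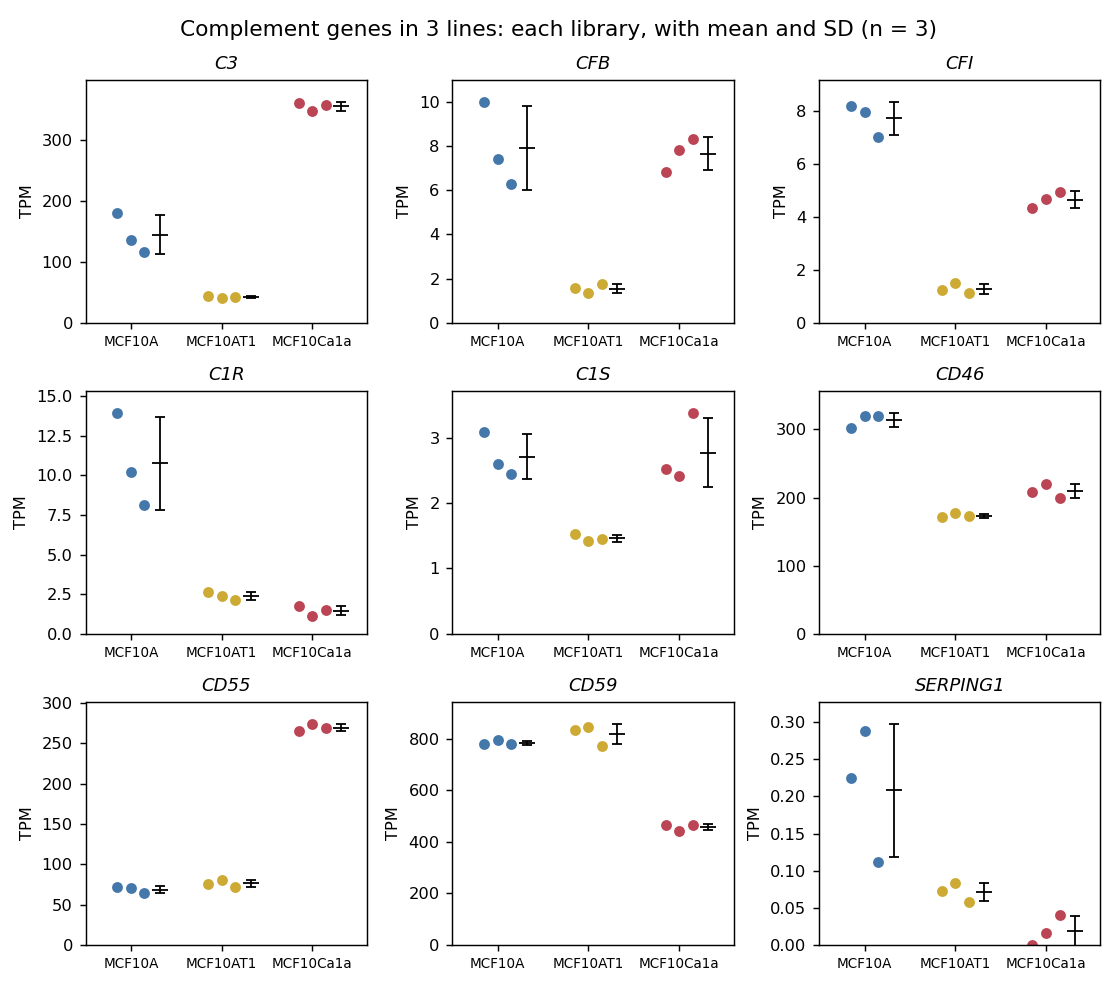
Level of each complement gene (vertical axes, TPM, each from 0) in the 3 libraries of each line (points), with the line's mean and SD (bars, n = 3). C3 stands between 347 and 361 TPM in MCF10Ca1a and between 40.0 and 44.2 in MCF10AT1, while C1R steps down from MCF10A through MCF10AT1 to MCF10Ca1a. SERPING1 passed the filter through MCF10A alone, so it had to be high there.

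By TPM, the scale that allows genes to be compared with one another, CD59 was the most abundant member in every line, and CD46, CD55 and C3 followed it in an order that differed between lines. In MCF10A the order was CD59 with 784 ± 9.0 TPM (SD, n = 3), CD46 with 314 ± 10.5, C3 with 144 ± 32.1 and CD55 with 68.4 ± 4.11. C1R, CFB and CFI followed with 10.8 ± 2.94, 7.92 ± 1.91 and 7.72 ± 0.627 TPM, and their libraries overlapped. C1S had 2.71 ± 0.342 TPM and SERPING1 0.208 ± 0.0894 TPM.

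In MCF10AT1 C3 dropped behind CD55. The order there was CD59 (817 ± 39.5 TPM), CD46 (173 ± 2.95), CD55 (76.2 ± 3.95), C3 (41.9 ± 2.15) and C1R (2.38 ± 0.268). CFB, C1S and CFI came next with 1.54 ± 0.198, 1.46 ± 0.0547 and 1.26 ± 0.196 TPM and did not differ beyond their spread. SERPING1 was last with 0.0710 ± 0.0125 TPM.

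In MCF10Ca1a C3 was second. CD59 had 457 ± 12.3 TPM, C3 355 ± 7.51, CD55 270 ± 4.43, CD46 209 ± 10.5, CFB 7.67 ± 0.753, CFI 4.65 ± 0.305, C1S 2.77 ± 0.528, C1R 1.45 ± 0.294 and SERPING1 0.0185 ± 0.0203. No neighbours in this order had overlapping libraries.

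C3 encodes the central component, whose cleavage yields the opsonin C3b. It lies on chromosome 19 (6677704-6730562, minus strand; all gene positions are from GENCODE 29 on GRCh38). Its level was 711, 575 and 513 CPM in the MCF10A libraries and 183, 179 and 177 in MCF10AT1, while the MCF10Ca1a libraries had 1361, 1305 and 1394. The 3 lines did not overlap, and the MCF10A libraries were the most spread, with a coefficient of variation of 16.9% against 1.60% and 3.33%. C3 was 3.34-fold lower in MCF10AT1 than in MCF10A (log2 fold change -1.74, SE 0.0957, edgeR adjusted p 2.62e-09). It was 2.26-fold higher in MCF10Ca1a than in MCF10A (1.17, SE 0.0939, adjusted p 4.03e-08 in the same test) and 7.52-fold higher than in MCF10AT1 (2.91, SE 0.0998, adjusted p 7.31e-12). Without MCF10A replicate 1, the library with the highest C3, the changes against MCF10A were -1.60 and 1.30. The summed level of 6 leukocyte and macrophage markers ranked the lines in the same order, with 18.5 to 26.2 TPM in MCF10A, 6.88 to 7.10 in MCF10AT1 and 31.0 to 33.8 in MCF10Ca1a. CD68, which encodes a lysosomal protein, made up 31.1 TPM of it in MCF10Ca1a and set this order, with 10.8 and 2.66 TPM in MCF10A and MCF10AT1. The macrophage genes CD14 and CSF1R were highest in MCF10A, with means of 8.62, 3.68 and 0.205 TPM for CD14 and 3.11, 0.663 and 0.604 TPM for CSF1R in MCF10A, MCF10AT1 and MCF10Ca1a. CSF1R overlapped between the derived lines. Of the 6, 3 reached 1 TPM in MCF10A, 2 in MCF10AT1 and 1 in MCF10Ca1a. The lymphocyte marker CD3E had 0 counts in all 9 libraries, and the pan-leukocyte gene PTPRC had 0 to 2. The part of these markers in the result was not tested.

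CFB encodes factor B, the protease precursor of the alternative pathway, and lies in the major histocompatibility complex on chromosome 6 (31945650-31952084, plus strand). CFI encodes factor I, the protease that inactivates C3b, and lies on chromosome 4 (109740694-109802179, minus strand). Of the 6 members matched to a promoter in the RefSeq table, CFB and CFI had the most alike profiles over the 9 libraries, with a root mean square difference of 0.309 in centred log2 CPM. Their promoters are shown for that reason. Each runs from 250 bases before to 50 bases after the annotated start (RefSeq, GRCh38.p14): chr6:31945845-31946144, plus strand, for CFB, and chr4:109801950-109802249, minus strand, for CFI. Capitals mark letters that match a motif of a factor known to act on complement genes.
CFB: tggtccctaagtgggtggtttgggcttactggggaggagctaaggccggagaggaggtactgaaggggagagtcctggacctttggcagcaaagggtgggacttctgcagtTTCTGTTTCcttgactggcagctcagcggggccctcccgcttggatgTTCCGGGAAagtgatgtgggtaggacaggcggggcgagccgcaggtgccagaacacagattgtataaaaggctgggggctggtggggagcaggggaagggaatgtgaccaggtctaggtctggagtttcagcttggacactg
CFI: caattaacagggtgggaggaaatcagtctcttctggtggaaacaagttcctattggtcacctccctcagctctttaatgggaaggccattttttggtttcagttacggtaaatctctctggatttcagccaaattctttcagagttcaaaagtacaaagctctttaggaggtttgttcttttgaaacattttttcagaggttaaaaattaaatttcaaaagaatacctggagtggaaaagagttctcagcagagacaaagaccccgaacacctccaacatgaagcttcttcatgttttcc
Motifs were searched on both strands. The CFB window held 1 match to the STAT letters TTCNNNGAA at -92 and 1 to the IRF letters GAAANNGAA on the reverse strand at -139, counted from the start site. The CFI window held no match to these letters, nor to TTGCNNAA (C/EBP), GGNNTTTCC (kappa B) or TGANTCA (AP-1). Of 35116 promoters of the same length, 7.66% held the STAT letters, 8.11% the IRF letters, 10.5% the C/EBP letters, 6.26% the kappa B letters and 7.71% the AP-1 letters.

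CFB was at 20.1, 16.7 and 14.2 CPM in MCF10A and 3.00, 2.85 and 3.17 in MCF10AT1, while the MCF10Ca1a libraries had 13.7, 14.7 and 14.9. The MCF10AT1 libraries were low and tight, whereas MCF10A and MCF10Ca1a overlapped. CFB was 5.64-fold lower in MCF10AT1 than in MCF10A (log2 fold change -2.50, SE 0.116, edgeR adjusted p 4.88e-10) and 4.80-fold higher in MCF10Ca1a than in MCF10AT1 (2.26, SE 0.120, adjusted p 6.08e-10). Between MCF10Ca1a and MCF10A the change was -0.23 (SE 0.105, edgeR adjusted p 0.0558). That comparison depended on MCF10A: the change was -0.36 without replicate 3, where it was called (edgeR adjusted p 0.00148), and -0.11 without replicate 1. It was also called without a filter on low counts (-0.31, edgeR adjusted p 6.30e-04). The neighbouring gene C2 ends within the first bases of CFB on the same strand, so reads there cannot be assigned with certainty.

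CFI was at 9.90, 10.0 and 9.51 CPM in MCF10A and 1.59, 2.17 and 1.51 in MCF10AT1, while the MCF10Ca1a libraries had 5.39, 5.97 and 6.49. The 3 lines were separate, with MCF10A highest. CFI was 5.56-fold lower in MCF10AT1 than in MCF10A (log2 fold change -2.48, SE 0.123, edgeR adjusted p 9.35e-10). It was 1.65-fold lower in MCF10Ca1a than in MCF10A (-0.72, SE 0.115, edgeR adjusted p 4.92e-05) and 3.38-fold higher than in MCF10AT1 (1.76, SE 0.131, adjusted p 2.15e-08).

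C1R and C1S encode the proteases of the C1 complex and are neighbours on chromosome 12, C1S at 6988259-7071032 on the plus strand and C1R at 7080199-7092607 on the minus strand. C1R was at 22.0, 17.9 and 15.5 CPM in MCF10A and 5.07, 5.98 and 4.70 in MCF10AT1, while the MCF10Ca1a libraries had 2.26, 2.44 and 2.71. Each MCF10AT1 library was below every MCF10A library, and each MCF10Ca1a library below every MCF10AT1 library. C1R was 3.52-fold lower in MCF10AT1 than in MCF10A (log2 fold change -1.81, SE 0.123, edgeR adjusted p 2.31e-08) and 7.48-fold lower in MCF10Ca1a (-2.90, SE 0.146, adjusted p 2.54e-10). The change between MCF10Ca1a and MCF10AT1 was -1.09 (SE 0.156, edgeR adjusted p 2.00e-05). On log2(TPM + 1) it was -0.47 (limma adjusted p 0.0268), and without a filter on that scale it was not called (0.0686). The 7 fibroblast markers, read because fibroblasts make both proteases, summed to 6.43 to 7.23 TPM in MCF10A, 27.7 to 31.5 in MCF10AT1 and 1.94 to 2.33 in MCF10Ca1a. The sum in MCF10AT1 was mostly DCN with 27.9 TPM, while COL1A2 had 0 counts there and in MCF10Ca1a, where LUM also had 0. COL3A1 had 0 counts in MCF10A. Of the 7, 2 reached 1 TPM in MCF10A, 1 in MCF10AT1 and 1 in MCF10Ca1a. COL1A1 averaged 3.06, 0.961 and 1.79 TPM in MCF10A, MCF10AT1 and MCF10Ca1a, and DCN 3.61, 27.9 and 0.329 TPM. The part of these markers in the results for C1R and C1S was not tested.

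C1S was at 6.72, 6.01 and 6.15 CPM in MCF10A and 3.76, 3.50 and 4.01 in MCF10AT1, while the MCF10Ca1a libraries had 4.83, 5.20 and 5.19, which makes 3 separate ranges with MCF10A highest. C1S was 1.67-fold lower in MCF10AT1 than in MCF10A (log2 fold change -0.74, SE 0.0905, edgeR adjusted p 8.22e-06) and 1.35-fold higher in MCF10Ca1a than in MCF10AT1 (0.43, SE 0.0961, adjusted p 9.37e-04). In MCF10Ca1a against MCF10A the change was -0.31 on counts (SE 0.0930, edgeR adjusted p 0.00732) but 0.02 on log2(TPM + 1) (limma adjusted p 0.880), where the libraries overlapped, and it was not called with the 2 other deposited count tables. The ratio of C1R to C1S in TPM was 3.93 ± 0.585 (SD, n = 3) in MCF10A, 1.63 ± 0.147 in MCF10AT1 and 0.532 ± 0.131 in MCF10Ca1a. The libraries of the 3 lines did not overlap in this ratio, from 3.34 to 4.51, 1.46 to 1.74 and 0.442 to 0.682, so the more abundant of the 2 transcripts was C1R in MCF10A and MCF10AT1 and C1S in MCF10Ca1a. The C1R-like gene C1RL overlaps C1R on the same strand, so reads in the shared part are uncertain. C1RL changed by -0.74 in MCF10AT1 and by 0.18 in MCF10Ca1a against MCF10A (edgeR adjusted p 5.55e-08 and 0.00858), the second not called with the other count tables or without a filter.

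SERPING1, which encodes C1 inhibitor, the serpin that blocks C1r and C1s, was barely detected (chromosome 11, 57597387-57614853, plus strand). The counts were 21, 25 and 12 in MCF10A and 8, 8 and 3 in MCF10AT1, while the MCF10Ca1a libraries had 0, 1 and 1. Libraries of the derived lines did not overlap in CPM. Relative to depth, MCF10AT1 held 4.94 times as much as MCF10Ca1a (95% exact counting interval 1.19 to 43.7; edgeR adjusted p 0.0328), a call that was lost in 9 of 17 alternatives, among them without MCF10AT1 replicate 1 or 2 and without MCF10Ca1a replicate 1 or 3 (adjusted p 0.0537 to 0.113). No ratio or test against MCF10A is given, since SERPING1 passed the filter through that line alone. The interval covers counting error only.

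**Figure D2:**
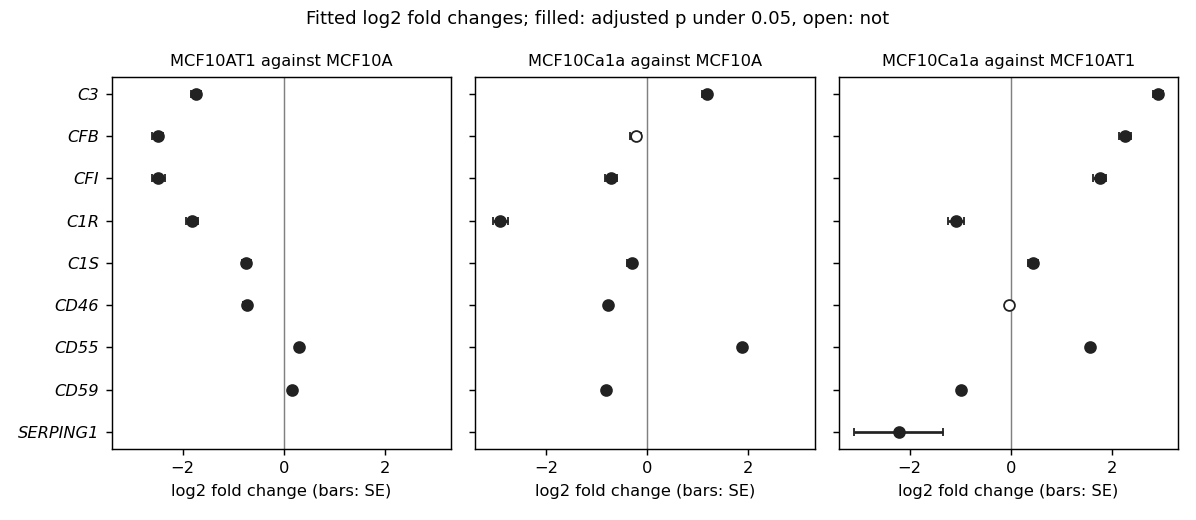
Fitted log2 fold changes (horizontal axes) of the 9 genes in the 3 comparisons with their SE (bars), filled where the edgeR adjusted p was under 0.05. SERPING1, which passed the filter through MCF10A alone, is drawn only in the comparison between the derived lines. C3, CFB and CFI lie left of 0 in MCF10AT1 against MCF10A and right of 0 in MCF10Ca1a against MCF10AT1, and CD55 lies right of 0 in all 3.

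CD46, CD55 and CD59 shield the cell surface. CD55 and CD46 lie in the cluster of complement regulators on chromosome 1, CD55 at 207321376-207386804 and CD46 at 207752057-207795513, both on the plus strand with CR2, CR1 and CR1L between them. CD55 was at 82.1, 85.6 and 82.1 CPM in MCF10A and 101, 107 and 99.9 in MCF10AT1, while the MCF10Ca1a libraries had 298, 312 and 304. Its 3 ranges were separate, those of MCF10A and MCF10AT1 by little. CD55 was 3.66-fold higher in MCF10Ca1a than in MCF10A (log2 fold change 1.87, SE 0.0518, edgeR adjusted p 5.95e-13) and 2.97-fold higher than in MCF10AT1 (1.57, SE 0.0513, adjusted p 4.59e-12). In MCF10AT1 against MCF10A it rose by 0.30 (SE 0.0506, edgeR adjusted p 1.57e-04). On log2(TPM + 1) the change was 0.15 (limma adjusted p 0.0434), and without a filter on that scale it was not called (0.0720).

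CD46 was at 424, 490 and 515 CPM in MCF10A and 282, 287 and 290 in MCF10AT1, while the MCF10Ca1a libraries had 280, 294 and 265. Both derived lines lay below MCF10A and overlapped each other. CD46 was 1.66-fold lower in MCF10AT1 (log2 fold change -0.73, SE 0.0704, edgeR adjusted p 7.81e-07) and 1.70-fold lower in MCF10Ca1a (-0.77, SE 0.0706, adjusted p 1.84e-07) than in MCF10A. Between the derived lines the change was -0.03 on counts (SE 0.0704, edgeR adjusted p 0.665), 0.01 with DESeq2 size factors and 0.27 on log2(TPM + 1) (limma adjusted p 5.80e-04). All genes shifted by a median of 0.13 on the TPM scale, which leaves 0.14 for CD46 relative to them.

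CD59, on chromosome 11 (33703010-33736491, minus strand), led all members in TPM. It was at 662, 714 and 732 CPM in MCF10A and 793, 807 and 757 in MCF10AT1, while the MCF10Ca1a libraries had 404, 398 and 396. The MCF10Ca1a libraries lay far below the rest, and the lowest MCF10AT1 library was just above the highest MCF10A library. CD59 was 1.76-fold lower in MCF10Ca1a than in MCF10A (log2 fold change -0.81, SE 0.0573, edgeR adjusted p 9.68e-09) and 1.97-fold lower than in MCF10AT1 (-0.98, SE 0.0574, adjusted p 1.78e-09). Its rise in MCF10AT1 was 0.16 (SE 0.0568, edgeR adjusted p 0.0248) and was not called in 6 of 19 alternatives, 3 of them without MCF10A replicate 2, MCF10AT1 replicate 1 or MCF10AT1 replicate 2 (adjusted p 0.0596, 0.0733 and 0.0929).

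The 3 membrane inhibitors added up to 1166 ± 16.2 TPM (SD, n = 3) in MCF10A, 1067 ± 44.1 in MCF10AT1 and 936 ± 3.66 in MCF10Ca1a. Their mixture differed between the lines. CD59 made up 67.2 ± 0.359% of it in MCF10A, 76.6 ± 0.648% in MCF10AT1 and 48.8 ± 1.37% in MCF10Ca1a. CD55 made up 5.87 ± 0.357%, 7.14 ± 0.123% and 28.8 ± 0.509%, and CD46 26.9 ± 0.693%, 16.3 ± 0.643% and 22.4 ± 1.07%. In each of these shares the libraries of the 3 lines were separate. C3 and CFB together came to 152 ± 34.0, 43.4 ± 2.24 and 363 ± 7.19 TPM in the same order.

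CD46 is spliced into several isoforms. A 45-base exon codes for part of the serine, threonine and proline rich stretch next to the membrane, and a 93-base exon decides which of the known cytoplasmic tails is made, because its stop codon ends the reading frame when it is kept. The 4 most abundant CD46 transcripts combine these exons in all 4 ways. The exons are shown because they set these transcripts apart: chr1:207767779-207767823 for the first and chr1:207790253-207790304 for the 52 coding bases of the second (GRCh38, plus strand). Capitals mark the stop codon.
Membrane-proximal exon: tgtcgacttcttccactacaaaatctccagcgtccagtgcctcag
Cytoplasmic exon, coding part: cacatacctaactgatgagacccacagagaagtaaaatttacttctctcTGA
ENST00000357714 has neither exon and 1107 coding bases, ENST00000367041 has the cytoplasmic exon (1086), ENST00000354848 the membrane-proximal exon (1152) and ENST00000367042 both (1131).

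These 4 transcripts held 77.6 ± 1.92% (SD, n = 3) of the CD46 counts in MCF10A, 72.4 ± 3.28% in MCF10AT1 and 79.0 ± 3.26% in MCF10Ca1a. Within them the share with the cytoplasmic exon was 44.2, 45.7 and 44.4% in the MCF10A libraries and 35.7, 37.3 and 38.1% in MCF10AT1, while the MCF10Ca1a libraries had 39.3, 40.2 and 38.2%. MCF10A was highest, and the derived lines were separated only narrowly. The share with the membrane-proximal exon was 37.9, 39.8 and 38.4% in MCF10A and 47.4, 44.6 and 44.997% in MCF10AT1, while the MCF10Ca1a libraries had 34.9, 36.2 and 34.3%. MCF10AT1 was highest and MCF10Ca1a lowest, with no overlap. The transcript with the cytoplasmic exon alone, ENST00000367041, made up 21.7 ± 0.852% of CD46 counts in MCF10A and 12.3 ± 0.315% in MCF10AT1 (-0.99 on the log2 ratio scale, limma adjusted p 0.00414 over transcripts).

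To test shares, each transcript was set against the other transcripts of its gene as a log2 ratio, which was compared between lines in limma, with a Simes p per gene adjusted over 11598 genes. The deposited transcript counts are estimates, whose uncertainty was not used here. In MCF10AT1 against MCF10A, 5 members were called (C3, CFB, CFI, CD46 and CD55), beside 9.72% of all genes. In MCF10Ca1a against MCF10A, 6 were called (C3, CFB, CFI, C1S, CD46 and CD59), beside 49.2%, and in MCF10Ca1a against MCF10AT1 also 6 (C3, CFB, CFI, CD46, CD55 and CD59), beside 42.2%. SERPING1 could not be tested. Counts were simulated with the same dispersion for every transcript and without assignment uncertainty. In them the share test made more false calls with this minimum of 10 counts per transcript than with 50. The deposited estimates differ from that setting, so the simulation does not say which of these calls are false. With at least 50 counts per transcript in place of 10, C3, CD46 and CD55 stayed called in the first comparison, C3, CD46 and CD59 in the second, where CD55 was then called, and C3, CD46, CD55 and CD59 in the third. CFI was then not called in any (limma adjusted p 0.167, 0.774 and 0.127), C1S was not called in the second (0.457), and CFB could not be tested.

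CD46 shares differed in MCF10AT1 against MCF10A with a limma adjusted p of 0.0153, which ran from 0.00309 to 0.0773 with each library left out and was above the threshold without any 1 of the 6 libraries of these lines. With the replicate number as a block it was 0.0600, and the call was lost. In MCF10Ca1a the adjusted p was 1.72e-05 against MCF10A and 9.81e-06 against MCF10AT1. Against MCF10A the transcript whose share moved most was ENST00000357714, from 25.9 ± 1.80% in MCF10A to 33.8 ± 4.85% in MCF10Ca1a (limma adjusted p 0.0512 over transcripts). It was not called itself, while 3 other CD46 transcripts were called in this comparison. The CD55 transcript ENST00000367064 held 77.1 ± 1.46% (SD, n = 3) of CD55 counts in MCF10A, 84.2 ± 0.476% in MCF10AT1 and 75.7 ± 1.63% in MCF10Ca1a. It was higher in each MCF10AT1 library than in any other, by 0.71 on the log2 ratio scale against MCF10A (limma adjusted p 0.00987 over transcripts). With the replicate number as a block this transcript was not called (limma adjusted p 0.0574), while the gene CD55 still was (0.0219).

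The CD59 transcript ENST00000642928, 7631 bases long with 384 coding bases, held 11.1, 9.51 and 11.6% of CD59 counts in MCF10AT1 and 23.7, 25.5 and 19.6% in MCF10Ca1a. The 2 lines did not overlap (1.30 on the log2 ratio scale, limma adjusted p 8.48e-04). ENST00000651485 held 12.6, 18.3 and 17.0% in MCF10A and 5.34, 1.83 and 4.18% in MCF10Ca1a, again without overlap (-2.39, limma adjusted p 0.00448). For C3, a transcript annotated as retaining an intron, ENST00000594936, took up 0.119, 0.116 and 0.105% of the gene in MCF10A and 1.35, 1.003 and 1.25% in MCF10AT1, while the MCF10Ca1a libraries had 1.57, 1.48 and 1.60%. It rose by 3.78 on the log2 ratio scale in MCF10Ca1a against MCF10A (limma adjusted p 3.39e-06). The full-length C3 transcript ENST00000245907 held 82.98 to 87.1% in all libraries. The C3 call in MCF10Ca1a against MCF10AT1 was lost without any 1 of the 3 MCF10Ca1a libraries (limma adjusted p 0.0730 to 0.0944).

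The leading CFB transcript, ENST00000425368, held 90.8 ± 2.96% (SD, n = 3) of CFB counts in MCF10A, 66.99 ± 6.49% in MCF10AT1 and 71.3 ± 0.976% in MCF10Ca1a. The CFI transcript ENST00000695845 held 31.9, 26.5 and 31.3% in MCF10A and 30.1, 28.5 and 30.9% in MCF10Ca1a, and 0 counts in all 3 MCF10AT1 libraries, where CFI had only 94 to 144 counts in all. A count of 0 allows up to 3 counts per library. The CFB call in MCF10AT1 against MCF10A was lost without MCF10A replicate 1, MCF10AT1 replicate 1 or 3, or MCF10Ca1a replicate 2 (limma adjusted p 0.0506 to 0.0695). The CFI calls were lost without MCF10AT1 replicate 3 against MCF10A (0.0768) and, in MCF10Ca1a against MCF10A, without that library or any 1 MCF10A library (0.0516 to 0.0838). The C1S call was lost without MCF10Ca1a replicate 1 or 2 (0.0504 and 0.0570).

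**Figure D3:**
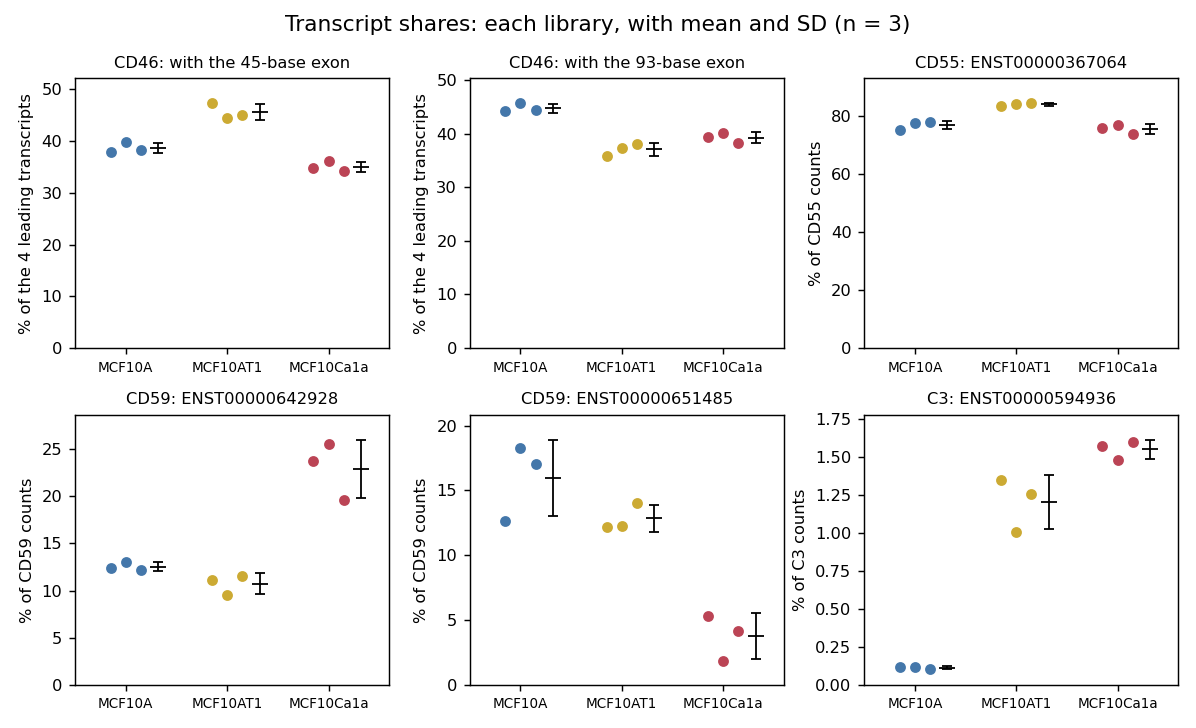
Transcript shares (vertical axes, percent, each from 0) in the 3 libraries of each line (points), with mean and SD (bars, n = 3). The CD46 panels give the share of the 4 leading transcripts with each exon, highest in MCF10AT1 for the 45-base exon and in MCF10A for the 93-base exon, and the CD55, CD59 and C3 panels give the share of the gene's counts.

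Of 54 other complement genes, 16 had 0 counts in all 9 libraries, among them C1QA, C1QB and C1QC (the subunits of C1q), C6, C7, C8A, C8B and the receptor CR1. Only 21 of the 54 passed the filter, 7 of which would not have passed without the libraries of the 1 line where they were high (ITGAM and ITGAX in MCF10A, CFP in MCF10AT1, and C2, C8G, COLEC10 and CR2 in MCF10Ca1a). Of the other 14, 2 were called higher and 8 lower in MCF10AT1 against MCF10A, beside 29.8% and 31.8% of all genes. In MCF10Ca1a against MCF10A 2 were higher and 9 lower, beside 39.0% and 41.9%. In MCF10Ca1a against MCF10AT1 5 were higher and 6 lower, beside 38.0% and 40.3%.

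C2, the classical pathway counterpart of CFB next to it on chromosome 6, was near the floor in the MCF10A libraries (4, 2 and 2 counts) and in those of MCF10AT1 (6, 4 and 5), and reached 71, 72 and 80 counts in MCF10Ca1a. No test is given for C2, for the reason above. PROS1, which encodes protein S, a partner of C4b-binding protein, changed by -2.38, -0.49 and 1.89 in the 3 comparisons (edgeR adjusted p 3.25e-11, 4.95e-05 and 1.60e-10), beside -2.48, -0.72 and 1.76 for CFI.

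C3AR1, the receptor for the C3a fragment, was read with 60, 51 and 47 counts in the MCF10A libraries, against 6, 3 and 2 for MCF10AT1 and 7, 7 and 10 for MCF10Ca1a. It was lower in both derived lines (log2 fold changes -3.77 and -1.79 against MCF10A, edgeR adjusted p 4.32e-07 and 8.98e-05). C5, the next component after C3, fell by 0.36 in MCF10AT1 and by 1.71 in MCF10Ca1a against MCF10A (edgeR adjusted p 0.00607 and 7.18e-09). ITGB2, the beta chain of the complement receptors of leukocytes, rose by 0.86 and 1.59 (edgeR adjusted p 4.35e-07 and 2.29e-10). The alpha chains read, ITGAM and ITGAX, had few counts and passed the filter through MCF10A, so no test is given. ITGAM had 34, 41 and 32 counts in the MCF10A libraries, against 3, 10 and 4 for MCF10AT1 and 3, 9 and 15 for MCF10Ca1a. ITGAX had 12, 16 and 21, against 8, 12 and 9 and then 2, 1 and 0. C4A and C4B were not called in any comparison, and as near-identical copies their counts are uncertain.

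**Figure D4:**
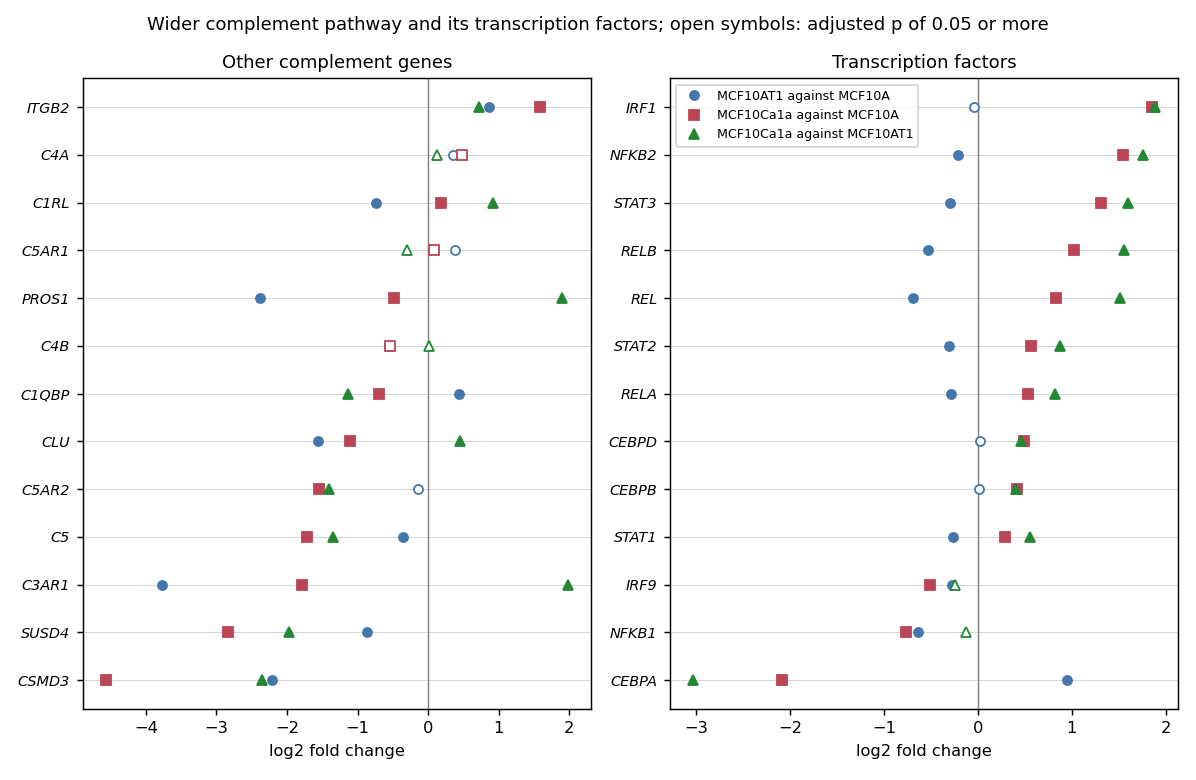
Fitted log2 fold changes (horizontal axes) of other complement genes tested and of 13 transcription factors in the 3 comparisons (circles, squares, triangles), filled where the edgeR adjusted p was under 0.05, with the 7 genes that passed the filter through 1 line left out. Most factors lie right of 0 in both comparisons with MCF10Ca1a, with CEBPA at -2.09 and -3.03.

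A list of 13 transcription factors known to act on complement genes was read beside the members. In MCF10AT1 against MCF10A 1 was called higher, CEBPA, and 9 lower, beside 29.8% and 31.8% of all genes, with a median log2 fold change of -0.27. In MCF10Ca1a 10 were higher than in MCF10A and 3 lower (median 0.53), beside 39.0% and 41.9% of all genes. Against MCF10AT1 10 were higher in MCF10Ca1a and 1 lower (median 0.82), beside 38.0% and 40.3%. STAT3, which carries the interleukin 6 signal to acute phase genes, was at 197, 174 and 162 CPM in MCF10A and 147, 147 and 140 in MCF10AT1, while the MCF10Ca1a libraries had 438, 438 and 446. It ranked the lines as C3 did, with log2 fold changes of -0.30, 1.31 and 1.61 in the 3 comparisons (edgeR adjusted p 0.00149, 2.97e-10 and 5.39e-11). IRF1, an interferon-induced activator, had a log2 fold change of -0.04 in MCF10AT1 (edgeR adjusted p 0.554, a sign that varied with the count table) and rose by 1.85 in MCF10Ca1a against MCF10A (adjusted p 1.17e-12). Of the NF-kappa B genes, NFKB2, RELB and REL changed by 1.55, 1.03 and 0.83 in MCF10Ca1a against MCF10A, and NFKB1 by -0.76 (edgeR adjusted p 1.66e-11, 2.60e-09, 1.05e-08 and 1.47e-07). CEBPA, a C/EBP factor of liver and epithelium, rose by 0.95 in MCF10AT1 and was lower by a log2 fold change of -2.09 in MCF10Ca1a against MCF10A (edgeR adjusted p 5.32e-05 and 2.39e-07). Whether any factor acts on these genes in these cells was not tested.

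Genes with the most similar profiles to each member were ranked among 13705 candidates by the root mean square difference over the 9 libraries of log2 CPM centred on each gene's mean. For C3 they were CA9 (0.0534) and PDZK1IP1 (0.117), for CFB LAT2 (0.133) and PROS1 (0.196), and for CFI PROS1 (0.176). C1R was nearest to SH2D2A (0.113) and TIMP1 (0.150), and C1S to SOX13 (0.0392) and PHLDB1 (0.0623). For the membrane inhibitors they were CXCL2 (0.0541) and MORN1 (0.0638) for CD46, SDCBP2 (0.0544) and KLHL36 (0.0617) for CD55, and RPP30 (0.0229) and ACTL6A (0.0264) for CD59. SERPING1, with few counts, had PLCD4 (0.307) and TRPC1 (0.375). Its profile had to be high in MCF10A, the line through which it passed the filter. Among the members other than SERPING1 the closest pairs were C1S with CD46 (0.250), CFB with CFI (0.309) and CD46 with CD59 (0.435). The farthest pair was C1R with CD55 (1.95). C1R and C1S differed by 1.07. These distances describe 3 lines only.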

How the data were processed

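Polyadenylated RNA of the 3 lines was sequenced with a stranded Illumina mRNA kit, per the labels' protocols. The submitters' processing notes name Salmon and hg38, without a version. The annotation the authors used is not given in the sources used here. The deposited tables hold estimated counts and TPM per gene and per transcript, and the estimated counts were made by the authors before deposit. The TPM values were used as the authors deposited them. The length-scaled and scaled gene counts that were also deposited served as alternatives.

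Estimated counts were rounded. Genes were kept with filterByExpr by line (minimum count 10, minimum total 15) and tested with edgeR 4.0.16 (quasi-likelihood, TMM, R 4.3.3), all 9 libraries in 1 fit, Benjamini-Hochberg adjustment over all genes tested. CPM uses TMM-scaled totals. SEs were computed from each log2 fold change and the F value of its test. Shares of transcripts were tested with limma 3.58.1 (pseudocount 0.5, at least 10 counts in 3 libraries), SDs are over 3 libraries, and the tests were tested on simulated data.

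Alternatives were DESeq2 1.42.0 size factors and Wald test, no filter, the other count tables, the replicate number as a block, limma on log2(TPM + 1) or log2(TPM + 0.1), a fit of the compared lines alone, leaving out each library and, for shares, a pseudocount of 0.1 or a minimum of 50 counts. Named genes were the 9 members, genes of the fixed lists and the 2 nearest profiles per member. For transcripts the rule took, in each comparison, the transcript with the largest share change of each called member. The grouping of CD46 transcripts by exon was chosen after their values were seen. Some genes of these lists are counted but not reported by name here. The members and lists were chosen with earlier results of these data known.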

Additional observations from a re-analysis of the deposited data

How the results depend on the processing

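Of 456 values of the 8 members other than SERPING1 recomputed under alternatives, 436 kept their direction and their side of the threshold, 10 lost the call, 2 gained one and 8 changed sign. Of the 8 members, those called under an alternative numbered 6 to 8 for MCF10AT1 against MCF10A, 6 to 8 for MCF10Ca1a against MCF10A, and 7 to 8 between the derived lines. CD46 in MCF10Ca1a against MCF10AT1 changed sign to 0.0122 with DESeq2 size factors and with the DESeq2 Wald test, and to 0.27 with limma on log2(TPM + 1), log2(TPM + 0.1) and without a filter. C1S in MCF10Ca1a against MCF10A became 0.0193, 0.0236 and 0.0193 on those 3 TPM scales. NFKB1 in MCF10Ca1a against MCF10AT1 became 0.15 on them. The value of IRF1, MCF10AT1 against MCF10A, became 0.0155 with length-scaled counts and 0.0145 with scaled counts, and ran from -0.0651 to 0.00715 with each library left out, above 0 without MCF10AT1 replicate 3. The share of the C3 transcript ENST00000245907 in MCF10Ca1a against MCF10AT1 became -0.000734 with at least 50 counts and ran from -0.0278 to 0.204 with each library left out, below 0 without MCF10AT1 replicate 3. The count of members with changed transcript shares in MCF10AT1 against MCF10A, 5 in the report, was 3 with at least 50 counts and 2 to 5 with each library left out: 3 without MCF10A replicate 1 and 2 without MCF10AT1 replicate 3. The cause was not tested.

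On log2(TPM + 1) all genes shifted by a median of -0.07, 0.06 and 0.13, and 36.2%, 55.0% and 61.6% of the calls were higher, against 48.4%, 48.2% and 48.5% on counts. Members with under 100 counts in MCF10Ca1a (C1R and SERPING1) are the least precise there.

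Replicate numbers did not pair the samples: deviations of same-numbered libraries correlated between -0.0597 and 0.0451. With the replicate number as a block, edgeR called 10846, 14397 and 13917 genes, against 11025, 14491 and 14034 without it, and 8, 7 and 7 of the 8 members other than SERPING1, as without it. Members with changed transcript shares numbered 4, 6 and 6 with the block, which lost CD46 in MCF10AT1 against MCF10A (limma adjusted p 0.0600).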
